A study of Mus musculus with 58 samples.

Results

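ISG15 is a small ubiquitin-like protein that is attached to other proteins by a short enzyme cascade and taken off again by a dedicated protease. The 6 genes described here encode that cycle in mouse: Isg15, the modifier itself; Uba7, the E1 enzyme that activates it; Ube2l6, the E2 enzyme that carries it; Herc6 and Trim25, which encode E3 ligases; and Usp18, which encodes the protease that removes it. They were taken by symbol from the 24537 genes of a table of read counts, where each of the 6 has 1 row. The rule for finding them uses the symbol alone.

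The livers came from male C57BL6/J mice that received an adeno-associated virus of serotype 8 carrying either Myc or the red fluorescent protein mApple behind the TBG promoter, which is active in hepatocytes. They were then given vehicle or ruxolitinib, which blocks the kinases JAK1 and JAK2, by gavage at 45 mg/kg 2 times a day with breaks at weekends for 30 days, and polyA RNA of the whole liver was sequenced in 2 batches. Young mice (4 months, second batch) formed 2 groups, mApple with vehicle (6 livers) and Myc with ruxolitinib (10). Old mice (25 months in the first batch, 24 months in the second) formed 4 groups: mApple with vehicle (8 livers, 4 of them in each batch), mApple with ruxolitinib (9, of which 4 in the first batch), Myc with vehicle (11, of which 6 in the first batch) and Myc with ruxolitinib (14, of which 4 in the first batch). Every mouse thus carried a virus and was gavaged. Young Myc mice on vehicle and young mApple mice on ruxolitinib were not analysed here, so in the young the vector and the drug cannot be told apart. Among old mice the batch and the month of age cannot be told apart either.

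Type I interferon acts through the receptor subunits IFNAR1 and IFNAR2, the kinases JAK1 and TYK2, and a complex containing STAT2 and IRF9 that binds interferon-stimulated response elements in the promoters of its target genes. ISG15 and the enzymes that conjugate it are well known targets of this route. USP18 has a second role as a brake: it binds IFNAR2 and limits further signalling, so it closes a negative feedback loop. TRIM25 is best known as a ubiquitin ligase for the RNA sensor RIG-I (Ddx58 in the table), and in mice HERC6 is regarded as the main ligase for ISG15.

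Promoter sequences were looked up for the 6 genes in RefSeq (build GRCm38.p6), where 5 had an entry and Usp18 did not. The 250 bases before each start were searched on both strands for GAAA, any 2 bases and GAAA again (the core of the interferon-stimulated response element), TTCNNNGAA (the core bound by STAT dimers) and CACGTG (the E-box bound by MYC with MAX, among other factors). Isg15 held 3 overlapping copies of the first motif, with first bases 78, 72 and 66 bases before the start. Trim25 held 1 copy of the third motif, with its first base 48 bases before the start. Uba7, Ube2l6 and Herc6 held none of the 3 motifs, and TTCNNNGAA was in none of the 5. Among 32851 promoters of the same length, 2.98% held the first motif, 7.02% the second and 6.02% the third. The last 100 bases before the start are shown for Isg15 and Trim25, because these are the members with a match, and for Herc6, which has none although its level varied closely with that of Isg15. Capitals mark the matches. The positions are chr4:156200819-156200918 (minus strand) for Isg15, chr6:57580892-57580991 (plus strand) for Herc6 and chr11:88999303-88999402 (plus strand) for Trim25.
Isg15: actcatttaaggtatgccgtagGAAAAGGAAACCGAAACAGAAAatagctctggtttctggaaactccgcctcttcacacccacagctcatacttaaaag
Herc6: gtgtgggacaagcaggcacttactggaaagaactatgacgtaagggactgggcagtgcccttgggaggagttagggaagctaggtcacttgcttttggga
Trim25: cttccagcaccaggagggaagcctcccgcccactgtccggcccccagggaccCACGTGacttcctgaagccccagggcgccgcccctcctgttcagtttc
A match describes these letters and is no evidence that a factor binds there.

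In mm10 the counted transcripts of the 6 genes lie on 5 chromosomes. Isg15 (NM_015783) is at chr4:156199424-156200818 and has 2 exons and a deposited length of 752 bases. Uba7 (NM_023738, 24 exons, 3136 bases) is at chr9:107975567-107984056, and Ube2l6 (NM_019949, 4 exons, 1381 bases) is at chr2:84798828-84810003. Herc6 (NM_025992, 23 exons, 5254 bases) at chr6:57580992-57665136 and Usp18 (NM_011909, 11 exons, 1758 bases) at chr6:121245906-121270917 share a chromosome. Trim25 (NM_009546, 9 exons, 5552 bases) is at chr11:88999403-89020293. The exon numbers are those of the GENCODE models, and the lengths are those deposited with the counts; the 2 sources differ, most for Herc6 and Ube2l6, whose GENCODE exons add up to 4767 and 1560 bases. Levels per kilobase use the deposited lengths. The exons of Usp18 overlap those of the predicted gene Gm44148 on the other strand by up to 124 bases, those of Uba7 overlap Gm20661 by up to 101 and those of Herc6 overlap Gm45193 by up to 228, both on the same strand. The counting had no strand setting, so reads from these stretches cannot be assigned to one gene.

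The libraries held exon counts of 10.68 to 40.98 M (median 14.59 M). All 6 genes had counts in all 58 libraries, from 12 counts for Usp18 and 23 for Isg15 in their lowest library to 5452 for Trim25 in its highest. Levels are given as CPM, the share of a library's counts, scaled with TMM factors, which correct for differences in composition between libraries. Myc, whose row cannot separate vector from endogenous transcripts, had median levels of 32.9 to 50.9 CPM in the 3 Myc groups and of 7.67 to 15.6 CPM in the 3 mApple groups, and old livers of both vectors overlapped (6.85 to 132 CPM with Myc and vehicle, 2.93 to 56.8 CPM with mApple and vehicle). The library labelled old, Myc, vehicle 870 (first batch) had 6.85 CPM of Myc, below every first-batch mApple vehicle liver (17.2 to 56.8 CPM), while the other first-batch Myc vehicle livers had 49.1 to 132 CPM. Its targeted gene thus goes against its label, and the fold changes of called members that rest on it are also given without it. Hepatocyte markers led every library: the summed level of the 8 markers ran from 52500 to 221000 CPM. The libraries 860 and 861 (old, Myc, ruxolitinib, first batch) stood apart in the leukocyte marker Ptprc, with 119 and 99.6 CPM against 5.14 to 35.7 CPM elsewhere, and in the summed level of 8 Kupffer cell markers (3730 and 2300 CPM). Library 864 (old, mApple, ruxolitinib, first batch) stood apart in neutrophil markers (615 CPM) and acute phase genes (35200 CPM). In bulk tissue a lower level can mean less RNA per cell or fewer cells of a type, and these cannot be told apart. The labels call the libraries separate mice only through their library numbers, so the p-values measure the spread between these libraries.

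The conjugating enzymes were not equally abundant. On the scale of CPM per kilobase of exon length, the E2 gene Ube2l6 was the most abundant of the 6 in every group, at 29.3 ± 5.72 (SD, n = 10) in young livers with Myc and ruxolitinib and 65.8 ± 11.6 (n = 11) in old livers with Myc and vehicle. The E1 gene Uba7 stood at 2.24 ± 0.567 and 7.37 ± 2.31 in the same 2 groups, and Herc6 at 1.99 ± 0.464 and 5.12 ± 2.20. Trim25 was the more abundant ligase gene in both, at 20.2 ± 1.82 and 25.6 ± 6.14. As a ratio of the highest to the lowest group mean, Isg15 and Usp18 covered the widest range, Isg15 from 3.74 ± 1.16 to 33.8 ± 24.8 and Usp18 from 1.21 ± 0.356 to 16.9 ± 7.16. Usp18 was thus the lowest of the 6 genes in young livers with Myc and ruxolitinib, and in old livers with Myc and vehicle its mean was above those of Uba7 and Herc6.

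**Figure D1:**
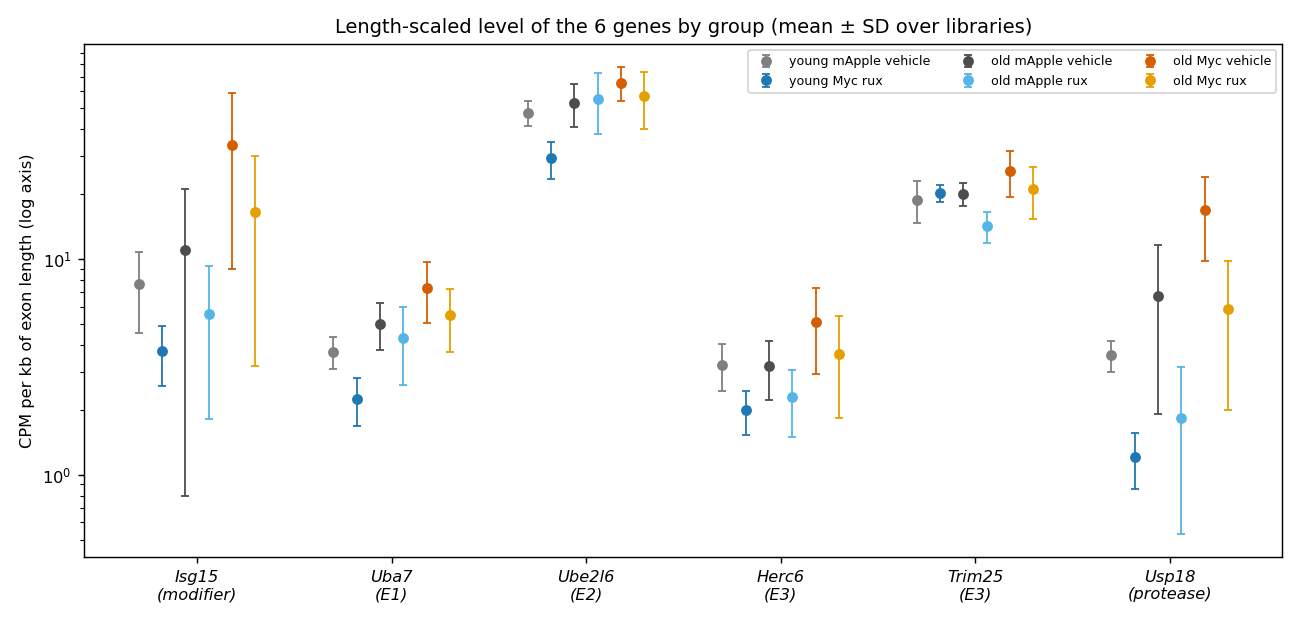
Mean level of the 6 genes in each group in CPM per kilobase of exon length (log axis), with bars of 1 SD over the livers of the group. Ube2l6 is highest in every group, and Isg15 and Usp18 span the widest range on the log axis, from 3.74 to 33.8 and from 1.21 to 16.9.

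Ordered by mean log2(CPM + 1) in the second batch, the only batch that holds all 6 groups, old livers with Myc and vehicle had the highest level of each of the 6 genes. Their nearest neighbour in this order was the old Myc group with ruxolitinib in each case, and the gap between them was larger than the larger of the SDs for Usp18, Uba7, Herc6 and Trim25, and smaller for Isg15 and Ube2l6. At the low end stood the young livers with Myc and ruxolitinib for Isg15, Uba7, Ube2l6 and Herc6, and the old livers with mApple and ruxolitinib for Usp18 and Trim25. For Usp18 these 2 low groups differed by 0.01 on the log2 scale, far less than their spread, and the young Myc ruxolitinib group did not overlap the next group above it, young mApple with vehicle. That is the one pair of neighbours in any of the 6 orders whose ranges did not overlap. Among the old groups of the first batch, the order for Usp18 was different below Myc with vehicle (4.76). There mApple with vehicle came next (3.53), and mApple with ruxolitinib (2.26) and Myc with ruxolitinib (2.21) stood lowest. For Isg15 Myc with ruxolitinib (2.84) was next below Myc with vehicle (4.03) in the first batch too.

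**Figure D2:**
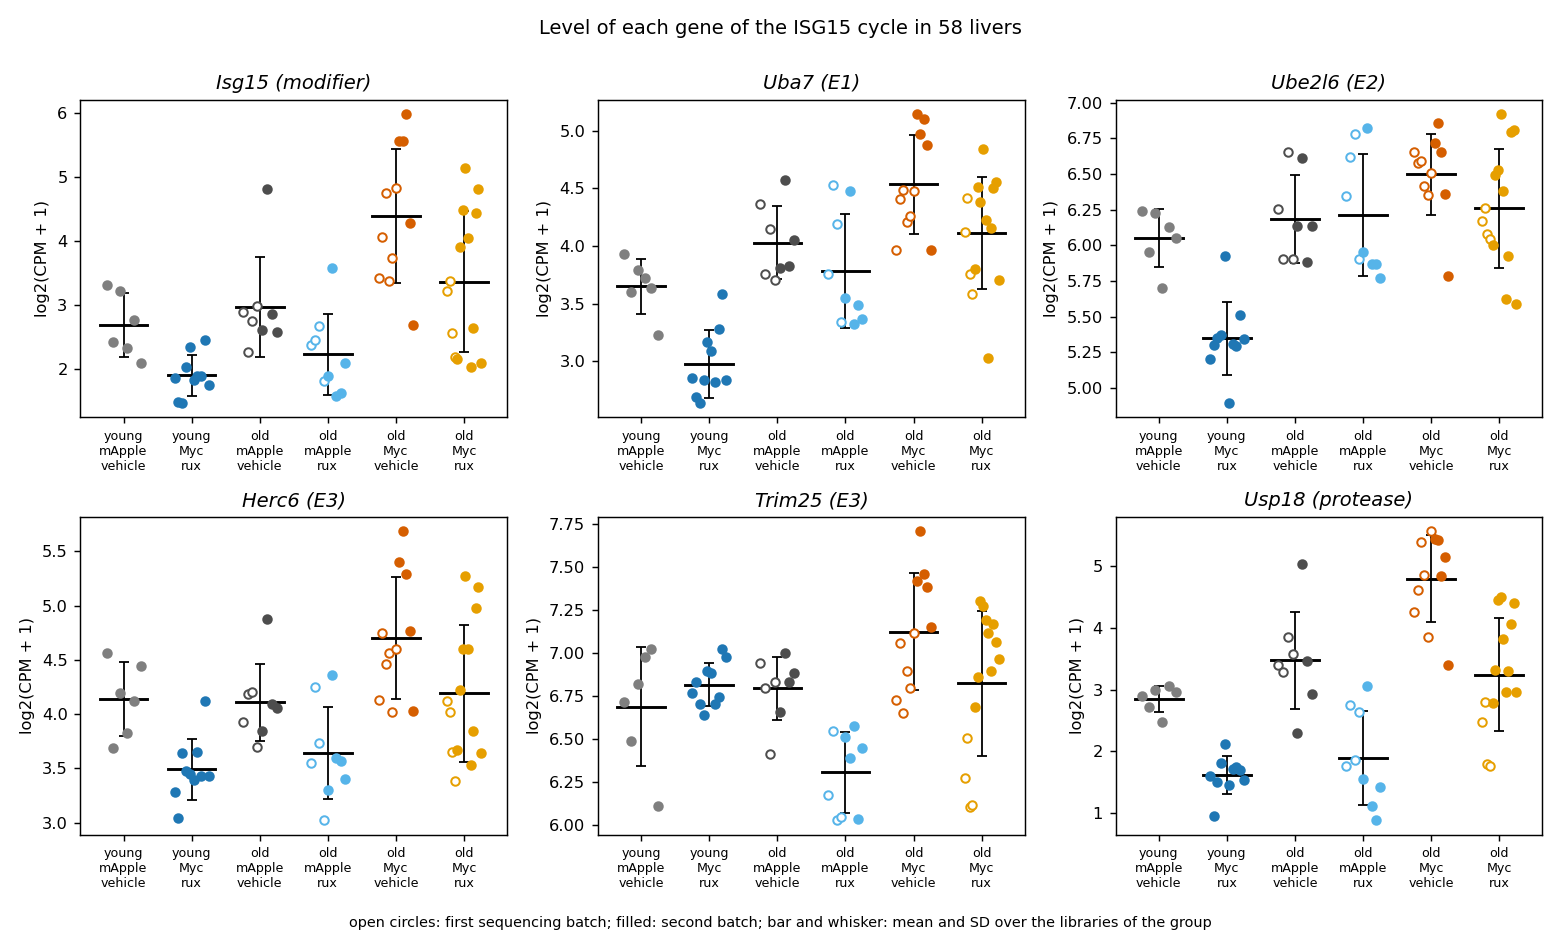
Level of each gene in each of the 58 livers, as log2(CPM + 1), by group; open circles are first-batch libraries, filled circles second-batch libraries, and bars show the mean and SD of the group. Old livers with Myc and vehicle have the highest mean for each gene, and 1 old mApple vehicle liver lies far above the other 7 for Isg15, at 4.81.

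The first comparison asks what ruxolitinib changed in old livers without the Myc vector. Trim25 was the member that passed the test, and it fell; the largest difference was that of Usp18, which did not pass. Trim25 measured 84.2, 113 and 127 CPM (lowest, median and highest) in the 8 vehicle livers and 64.2, 82.8 and 94.4 CPM in the 9 ruxolitinib livers. Within batches, a ruxolitinib liver was above a vehicle liver in 1 of 36 pairs. Its log2 fold change was -0.51 ± 0.10 (SE, adjusted p = 0.0237, edgeR quasi-likelihood test with Benjamini-Hochberg adjustment over all genes tested). Thus 1 of 6 members was called, against a background of 0.391% of the 13554 genes tested (53 genes, 0.384% lower).

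Usp18 measured 3.90, 9.75 and 31.7 CPM with vehicle and 0.851, 2.41 and 7.32 CPM with ruxolitinib. In the first batch the 2 groups did not overlap, and over both batches the drug-treated liver was the higher one in 2 of 36 pairs. The log2 fold change was -1.91 ± 0.44 (adjusted p = 0.0844, edgeR). DESeq2 and limma voom put this difference past the threshold, as did leaving out the ruxolitinib library 1140, its highest. Isg15 measured 3.81, 6.0 and 27.1 CPM with vehicle and 1.97, 3.27 and 11.0 CPM with ruxolitinib, a log2 fold change of -0.96 ± 0.41 (adjusted p = 0.457, edgeR) that came to -0.42 without the vehicle library 1136. The values for the others were -0.50 ± 0.20 for Herc6, -0.23 ± 0.21 for Uba7 and 0.05 ± 0.17 for Ube2l6, none past the threshold. The call for Trim25 was lost without 1136, 854, 855, 856, 863 or 865, with adjusted p up to 0.0689, and within each batch alone (-0.55 in the first, adjusted p = 0.188; -0.47 in the second, adjusted p = 0.276).

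Other interferon-stimulated genes were lower with the drug as well. Of 34 such genes, 16 fell and 0 rose, with a median log2 fold change of -1.08 beside 0.01 over all genes tested. Those with the smallest p were Rtp4 (-1.91 ± 0.23), Mx2 (-1.53 ± 0.20), which encodes an antiviral GTPase, Parp14 (-1.24 ± 0.17) and Ifit1 (-2.5 ± 0.40), whose product binds viral RNA. Of 16 upstream signalling genes 2 fell, Irf9 (-1.43 ± 0.14) and Stat2 (-0.53 ± 0.10), which encode partners in the complex that binds the response element. Among 21 tested genes for other proteins reported to act with ISG15 or to carry it, 2 fell: Ddx58 (-0.66 ± 0.13) and Eif2ak2 (-0.70 ± 0.14), the gene of the RNA-activated kinase PKR. Of the relatives of the members, 0 of 9 other E1 genes, 0 of 8 E2 genes, 0 of 4 other HERC genes and 0 of 8 USP protease genes were called, and 1 of 10 other TRIM genes fell, Trim21 (-0.52 ± 0.11), which is also counted among the interferon-stimulated genes. Trim34a was at -0.80 ± 0.18 and did not pass (adjusted p = 0.0676, edgeR). The paralogs Uba1 (-0.07 ± 0.07) and Ube2l3 (-0.01 ± 0.06), which serve ubiquitin, were not called. For the drug in old Myc livers, Trim34a did pass (-1.03 ± 0.17, adjusted p = 0.00316, edgeR). Trim21 did not pass there (-0.42 ± 0.11, adjusted p = 0.0978, edgeR).

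In old livers with Myc the same drug comparison called 2 members, Usp18 and Trim25, both lower, against a background of 0.545% of 13749 genes (75 genes, 0.502% lower). Usp18 measured 9.50, 28.0 and 46.2 CPM in the 11 vehicle livers and 2.41, 7.86 and 21.6 CPM in the 14 ruxolitinib livers. In the first batch every ruxolitinib liver (2.41 to 5.97 CPM) was below every vehicle liver (13.5 to 46.2 CPM), whereas the second-batch ranges overlapped through the vehicle library 1148 at 9.50 CPM. Usp18 fell by 1.87 ± 0.33 on the log2 scale (adjusted p = 0.00439, edgeR). The size differed between batches, -2.81 in the earlier one (adjusted p = 0.022) and -1.27 in the later one (adjusted p = 0.23), and limma voom did not call it.

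Trim25 measured 99.5, 138 and 208 CPM with vehicle and 67.7, 121 and 157 CPM with ruxolitinib. The first-batch groups did not overlap (67.7 to 90.0 CPM with ruxolitinib, 99.5 to 138 CPM with vehicle), and the second batch lay higher in both; within batches the ruxolitinib liver was the higher one in 4 of 74 pairs. It fell by 0.45 ± 0.09 on the log2 scale (adjusted p = 0.00756, edgeR), with -0.58 among first-batch and -0.36 among second-batch livers (adjusted p = 0.0423 and 0.271). Isg15 measured 5.47, 18.6 and 62.5 CPM with vehicle and 3.07, 8.88 and 34.3 CPM with ruxolitinib, a log2 fold change of -1.27 ± 0.41 that did not pass (adjusted p = 0.203, edgeR). Herc6 (-0.64 ± 0.22), Uba7 (-0.48 ± 0.18) and Ube2l6 (-0.22 ± 0.15) did not pass either. The libraries 860 and 861, high in leukocyte and Kupffer cell markers, are among the 4 first-batch ruxolitinib livers. The 4 other libraries set aside with them were 858, 864, 865 and 870, of which 858 and 870 belong to this comparison. No measure that set 858 and 865 apart is given here. With the 6 left out together, Usp18 was at -1.79 (adjusted p = 0.0224) and Trim25 at -0.49 (adjusted p = 0.0167). Without the library labelled Myc vehicle 870, Usp18 was at -1.9 (adjusted p = 0.00461) and Trim25 at -0.45 (adjusted p = 0.0113).

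Of the 34 other interferon-stimulated genes, 14 fell and 0 rose under the drug in Myc livers, with a median of -0.97 beside 0.01 for all genes. The smallest p-values belonged to Ifit1 (-2.39 ± 0.39), Parp9 (-0.77 ± 0.13), Parp14 (-1.03 ± 0.17) and Ifi35 (-0.71 ± 0.12). Upstream 3 of 16 genes fell, among them Stat2 (-0.66 ± 0.10) and Irf9 (-1.02 ± 0.18). Ddx58 (-0.79 ± 0.16) and Eif2ak2 (-0.69 ± 0.15) fell here too, 2 of 21. Whether the drug's effect differed between the vectors was tested directly. The interaction of vector and drug called 0 of 6 members and 0 of 14046 genes by edgeR, and also 0 genes by DESeq2 and by limma voom, while 735 genes (5.23%) had an unadjusted p under 0.05, none of them a member. For Usp18 the interaction was 0.20 ± 0.56 with a 95% interval from -0.94 to 1.34, and for Trim25 it was 0.13 ± 0.15 (-0.17 to 0.44). Intervals of this width leave room for a sizeable difference in either direction for Usp18. Its interaction was -1.4 among first-batch livers and 1.05 among second-batch livers. The batches thus differed in direction, and neither value passed.

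**Figure D3:**
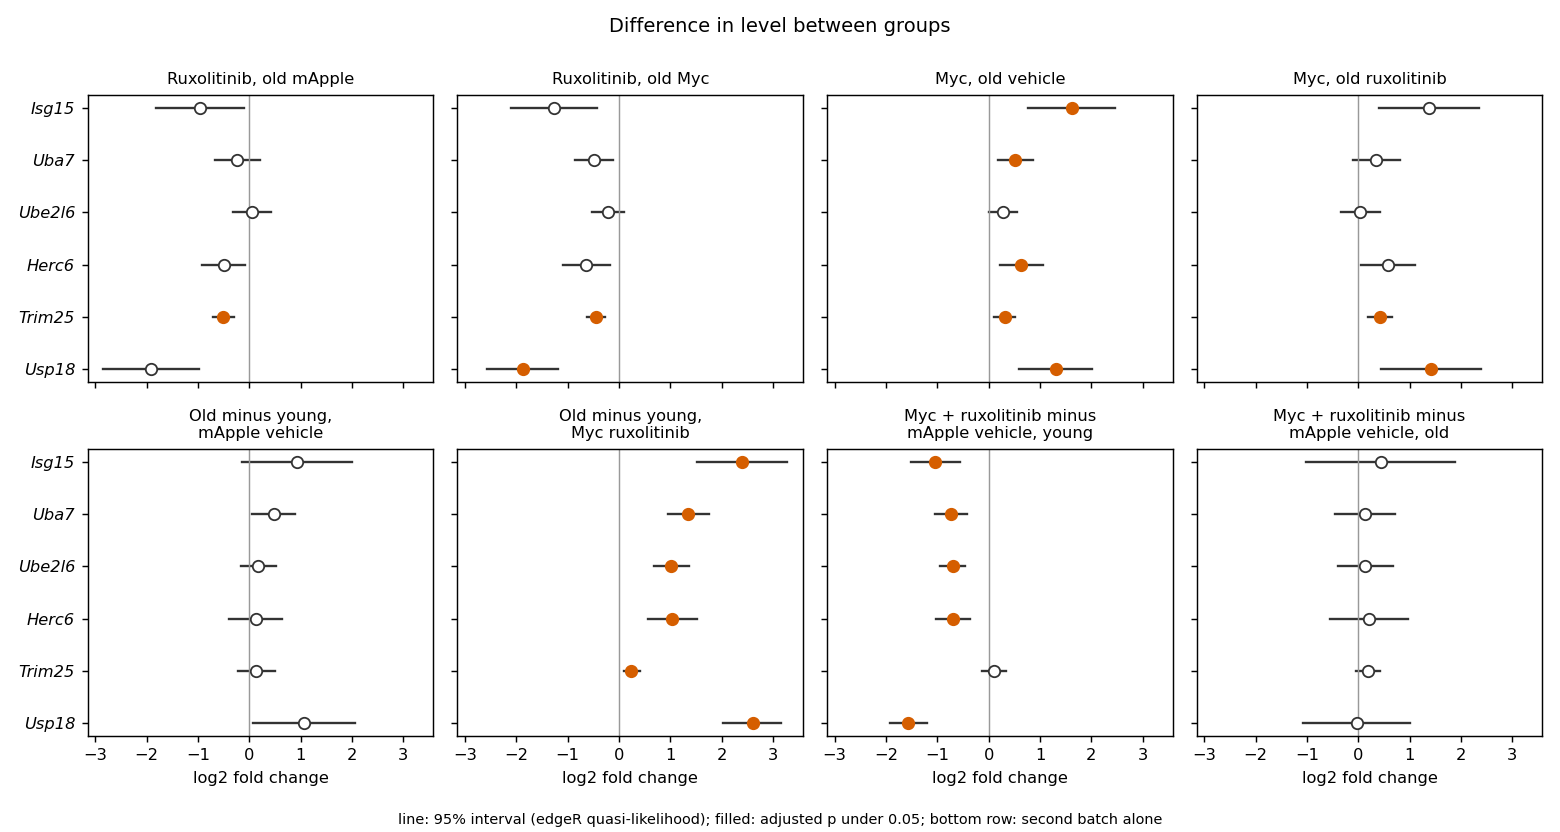
Log2 fold change of the 6 genes in 8 comparisons, with 95% intervals; filled points have an adjusted p under 0.05 (edgeR quasi-likelihood). The top row uses old livers of both batches, the bottom row second-batch livers. All 6 points are filled for old against young livers with Myc and ruxolitinib, and 5 for Myc against mApple in old vehicle livers.

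The next comparison asks what the Myc vector changed in old livers under vehicle; it shares its libraries with both drug comparisons. Of the 6 members 5 rose and 0 fell, against a background of 18.8% of 13547 genes called (2544 genes, 10.8% higher). Isg15 rose most, from 3.81, 6.0 and 27.1 CPM with mApple to 5.47, 18.6 and 62.5 CPM with Myc. The first-batch Myc livers were all above the first-batch mApple livers, and in the second batch 1148 (Myc, 5.47 CPM) and 1136 (mApple, 27.1 CPM) made the groups overlap. Its log2 fold change was 1.62 ± 0.41 (adjusted p = 0.00883, edgeR), and 2.04 without 1136.

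Usp18 rose by 1.31 ± 0.34 (adjusted p = 0.0112), from a median of 9.75 CPM to one of 28.0 CPM. The Myc liver was the higher one in 41 of 44 pairs within batches, the same number as for Isg15. The E1 gene Uba7 measured 12, 14.4 and 22.8 CPM with mApple and 14.6, 21.3 and 34.3 CPM with Myc, a rise of 0.52 ± 0.16 (adjusted p = 0.0277). Herc6 rose by 0.64 ± 0.20 (adjusted p = 0.0268), from 12, 15.8 and 28.4 CPM to 15.2, 23.2 and 50.4 CPM. Trim25 rose by 0.31 ± 0.10 (adjusted p = 0.0365). Ube2l6 measured 58.1, 69.3 and 99.7 CPM with mApple and 54.2, 94.5 and 115 CPM with Myc, and its difference of 0.28 ± 0.13 did not pass (adjusted p = 0.153).

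These calls differed in how much they rested on single libraries and on batch. Those of Isg15 and Usp18 held without any 1 library, with adjusted p up to 0.0209 and 0.0267. The call of Uba7 was lost without 1135, 1137, 1138, 855 or 863, that of Herc6 without 1135, 1137, 1138 or 863, and that of Trim25 without 1135, 1137, 1138, 1144, 1145, 1146, 1147, 859, 862 or 871, with adjusted p up to 0.0627, 0.0593 and 0.0819. Trim25 differed by 0.10 among first-batch livers and by 0.57 among second-batch livers (adjusted p = 0.691 and 0.0194). Isg15 and Usp18 differed by 1.53 and 1.39 in the first batch (adjusted p = 0.0247 and 0.0266) and by 1.73 and 1.26 in the second (adjusted p = 0.184 and 0.238). Without the library labelled Myc vehicle 870, whose Myc level goes against its label, the same 5 members were called: Isg15 at 1.66 (adjusted p = 0.0074), Usp18 at 1.38 (0.00601), Uba7 at 0.54 (0.0243), Herc6 at 0.69 (0.0153) and Trim25 at 0.33 (0.0248).

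Beside the members, 20 of 34 other interferon-stimulated genes rose and 0 fell, with a median of 0.89 beside -0.02 for all genes; Ifi35 (0.63 ± 0.11), Bst2 (0.96 ± 0.18), Ifi27l2a (1.29 ± 0.25) and Oas1g (1.75 ± 0.39) had the smallest p. Upstream, Irf7 rose (1.19 ± 0.29), which encodes a transcription factor that amplifies interferon production, and Jak1 (-0.27 ± 0.07) and Jak2 (-0.23 ± 0.07) fell. Of 21 genes for proteins that act with ISG15, 4 rose, among them Eif4e2 (0.25 ± 0.07), Skp2 (0.53 ± 0.16) and Eif2ak2 (0.52 ± 0.17). Among the relatives Sae1 rose (0.56 ± 0.10), an E1 subunit for the modifier SUMO, as did 3 of 10 TRIM genes, and Herc1 (-0.22 ± 0.07), Herc2 (-0.30 ± 0.08) and Usp9x (-0.26 ± 0.08) fell. The summed level of 6 plasmacytoid dendritic cell markers was higher with Myc (116 to 303 CPM) than with mApple (75.1 to 137 CPM). Bst2, which is itself interferon-stimulated, and Tcf4 had the highest medians in that list (100 and 20.1 CPM over all libraries), while the defining marker Siglech did not exceed 1.20 CPM and Ccr9 did not exceed 0.933 CPM in any library, and Klk1 and Cox6a2 had medians under 0.1 CPM. Of 8 hepatocyte markers 3 fell, Alb (-0.60 ± 0.13), Serpina1a (-0.38 ± 0.09) and Apoa1 (-0.57 ± 0.14), and their summed level was 88500 to 159000 CPM with Myc and 127000 to 221000 CPM with mApple. Of 5 sinusoidal endothelial markers 4 fell, among them Kdr (-0.54 ± 0.11), with sums of 125 to 238 CPM against 171 to 291 CPM, and 1 of 4 stellate cell markers fell. All 5 proliferation genes rose, among them Cdk1 (2.24 ± 0.38), with sums of 12.9 to 103 CPM against 5.27 to 17.9 CPM. The part of these markers in the result was not tested.

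Under ruxolitinib the vector comparison in old livers called 2 members, Usp18 and Trim25, both higher, against a background of 14.4% of 14010 genes (2012 genes, 8.40% higher). Its 23 libraries are the ruxolitinib arms of the drug comparisons. Usp18 measured 0.851, 2.41 and 7.32 CPM with mApple and 2.41, 7.86 and 21.6 CPM with Myc, a rise of 1.41 ± 0.47 (adjusted p = 0.0451, edgeR). The difference was 2.31 among second-batch livers (adjusted p = 0.00908) and -0.06 among first-batch livers (adjusted p = 0.95). Trim25 rose by 0.43 ± 0.11 (adjusted p = 0.0138), by 0.03 among first-batch and 0.67 among second-batch livers (adjusted p = 0.941 and 0.00195). In the second batch each of the 10 Myc livers (102 to 157 CPM) was above each of the 5 mApple livers (64.5 to 94.4 CPM) for Trim25.

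Isg15 was at the threshold, 1.38 ± 0.47 (adjusted p = 0.0512), and its call was gained when any of 1140, 1149, 1154, 1155, 1158, 864, 868 or 869 was left out. That of Usp18 was lost without any 1 of 13 of the libraries (1139, 1141, 1142, 1143, 1150, 1151, 1152, 1153, 1156, 1157, 856, 861 or 864), with adjusted p up to 0.104. Herc6 (0.57 ± 0.25), Uba7 (0.35 ± 0.22) and Ube2l6 (0.04 ± 0.19) did not pass. Of the other interferon-stimulated genes 15 of 34 rose and 0 fell (median 0.90 beside 0.01). All 5 proliferation genes rose as well, while 1 of 8 hepatocyte, 2 of 5 sinusoidal endothelial and 1 of 4 bile duct markers fell; their part in the result was not tested. The second-batch Myc livers with ruxolitinib were themselves spread widely: Isg15 ran from 3.07 to 34.3 CPM across the 10, with 1149, 1154, 1155 and 1158 at 3.07 to 5.25 CPM and the others at 14.1 CPM or more. The same 4 livers were the lowest for Herc6 (10.6 to 13.4 CPM), and for Usp18 (5.86 to 8.89 CPM). Of these, 1149 and 1154 had summed acute phase genes of 2790 and 4820 CPM against a group median of 82.1 CPM. The leukocyte marker Ptprc deviated from the mean of its group and batch by -0.8 in 1149 and -0.71 in 1154 (log2(CPM + 1)). It deviated by -0.82 in 1158 and by -0.11 in 1155, and in the others from -0.22 in 1151 to 1.01 in 1156. The part of these markers in the result was not tested.

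Age was compared in the second batch alone. In mApple vehicle livers 0 of 6 members were called by edgeR, DESeq2 or limma voom. Over the whole table edgeR called 1.1% of 13155 genes (145 genes), DESeq2 649 genes and limma voom 1640 genes. By edgeR Usp18 and Uba7 had an unadjusted p under 0.05, as did 17.8% of all genes. All 6 differences were positive, from 0.13 ± 0.24 for Herc6 to 1.07 ± 0.46 for Usp18 (adjusted p = 0.815 and 0.244). Usp18 measured 3.90, 6.60, 10 and 31.7 CPM in the 4 old livers and 4.58, 6.64 and 7.32 CPM in the 6 young ones. Isg15 measured 4.98, 5.11, 6.27 and 27.1 CPM against 3.27, 5.08 and 8.91 CPM. The highest old value of both genes is library 1136, which also had the highest Ptprc (30.6 CPM) and summed Kupffer cell markers (578 CPM) of the 8 old mApple vehicle livers; their part in the result was not tested. Without it the difference was 0.11 for Usp18 and -0.09 for Isg15, while Ube2l6 and Herc6 also turned negative, at -0.01 and -0.18. With all livers, Uba7 was at 0.48 ± 0.19 (adjusted p = 0.217, edgeR), and the old liver was the higher one in 22 of 24 pairs. For the other members this number ran from 12 (Herc6) to 16 (Isg15).

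In livers with Myc and ruxolitinib, age came with higher levels of all 6 members. All 6 of 6 rose, against a background of 33.7% of 12760 genes called (4306 genes, 18.1% higher). Usp18 measured 0.932, 2.15 and 3.37 CPM in the 10 young livers and 5.86, 11.1 and 21.6 CPM in the 10 old ones, so the ranges did not overlap. It rose by 2.60 ± 0.27 on the log2 scale (adjusted p = 8.91e-07, edgeR), a 6.04-fold difference. The 4 old first-batch livers with Myc and ruxolitinib, outside this comparison, had 2.41 to 5.97 CPM, a range that overlaps the young one. Isg15 measured 1.77, 2.66 and 4.49 CPM against 3.07, 14.8 and 34.3 CPM and rose by 2.40 ± 0.43 (adjusted p = 0.000252); 7 of the 10 old livers were above every young one.

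The enzyme genes had smaller fold changes. Uba7 measured 5.23, 6.20 and 11.0 CPM in the young and 7.17 to 27.7 CPM in the old, where 9 of 10 were above every young liver, and rose by 1.35 ± 0.19 (adjusted p = 2.56e-05). Ube2l6 measured 28.8, 39.1 and 59.7 CPM against 47.2, 85.7 and 120 CPM and rose by 1.02 ± 0.17 (adjusted p = 0.000113). Herc6 measured 7.22, 9.88 and 16.4 CPM against 10.6, 20.4 and 37.6 CPM and rose by 1.03 ± 0.23 (adjusted p = 0.00184). Trim25 changed least, from 98.6, 111 and 129 CPM to 102, 136 and 157 CPM (0.24 ± 0.07, adjusted p = 0.0159). All 6 calls held without any 1 library, and Trim25 alone was lost in a single fit of all 58 libraries.

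Around them, 29 of 33 tested interferon-stimulated genes rose and 0 fell (median 1.38 beside 0.02), led by Mx2 (1.86 ± 0.15), Psmb8 (1.66 ± 0.14), Oasl1 (2.16 ± 0.24) and B2m (0.68 ± 0.08). Upstream 11 of 15 tested genes rose, among them Irf9 (1.3 ± 0.15), Irf7 (3.14 ± 0.38), Socs3 (2.11 ± 0.31) and Irf1 (0.58 ± 0.09). Among the relatives of the members, 4 of 10 other TRIM genes rose and 0 fell: Trim21 (0.65 ± 0.09), Trim34a (0.89 ± 0.15), Trim26 (0.32 ± 0.06) and Trim24 (1.06 ± 0.22). Of 9 other E1 genes 3 fell and 0 rose, among them Uba6 (-0.80 ± 0.14). Of 8 E2 genes 1 rose and 1 fell, of 4 other HERC genes 3 fell and Herc3 rose (0.51 ± 0.11), and of 8 USP genes 4 fell and 0 rose. Ube2l3, the close relative of Ube2l6, differed by -0.05 ± 0.05 and was not called. Myc was lower in these old livers than in the young ones (-0.70 ± 0.10, adjusted p = 3.33e-05, edgeR), and the summed hepatocyte markers were at 92200 to 145000 CPM in the old and 79400 to 108000 CPM in the young, with 2 of 8 higher and 1 lower.

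Markers of other cells moved with age in the same livers. Of 6 monocyte or macrophage markers 4 rose, among them Trem2 (1.19 ± 0.19) and Gpnmb (2.37 ± 0.42), with sums of 95.8 to 197 CPM in the old and 69.7 to 125 CPM in the young. Kupffer cell markers rose in 2 of 8 cases (137 to 356 CPM against 115 to 265 CPM). Both tested B cell markers rose, Cd79b (1.5 ± 0.30) and Cd79a (1.43 ± 0.40), from sums of 1.23 to 3.49 CPM to 1.42 to 9.48 CPM. The 1 tested neutrophil marker, S100a9, rose too (1.67 ± 0.37), and of 2 plasmacytoid dendritic cell markers Bst2 rose. Of 4 acute phase genes 3 rose, among them Lcn2 (5.06 ± 1.13), with sums of 48.0 to 4820 CPM against 18.4 to 897 CPM. Sinusoidal endothelial markers fell in 3 of 5 cases (66.5 to 182 CPM against 122 to 229 CPM), as did 1 of 4 stellate cell markers, and 1 of 5 proliferation genes rose. The part of these markers in the result was not tested.

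Young livers allow the combination of Myc and ruxolitinib to be set against mApple with vehicle. Of the 6 members 5 fell and 0 rose, against a background of 27.5% of 12808 genes called (3524 genes, 14% lower). Usp18 measured 4.58, 6.64 and 7.32 CPM with mApple and vehicle and 0.932, 2.15 and 3.37 CPM with Myc and ruxolitinib; the ranges did not overlap. It fell by 1.56 ± 0.18 on the log2 scale (adjusted p = 3.02e-06, edgeR), 2.94-fold. Isg15 measured 3.27, 5.08 and 8.91 CPM against 1.77, 2.66 and 4.49 CPM and fell by 1.04 ± 0.23 (adjusted p = 0.00215).

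Uba7 fell by 0.73 ± 0.15 (adjusted p = 0.00112), Ube2l6 by 0.70 ± 0.12 (adjusted p = 0.000157) and Herc6 by 0.70 ± 0.15 (adjusted p = 0.00234). For Ube2l6, 9 of 10 treated livers were below every control. Trim25 was the exception, at 67.9, 108 and 129 CPM against 98.6, 111 and 129 CPM, a difference of 0.10 ± 0.11 with a 95% interval from -0.13 to 0.33 (adjusted p = 0.546). Each of the 5 calls held without any 1 library, and that of Isg15 was lost in a single fit of all 58 libraries (adjusted p = 0.126, edgeR). Of the other interferon-stimulated genes 29 of 34 fell and 0 rose (median -1.01 beside -0.01), and upstream 9 of 15 tested genes fell, among them Irf9 (-1.53 ± 0.09), Stat2 (-0.77 ± 0.08) and Socs3 (-2.06 ± 0.30), which encodes a feedback inhibitor of JAK signalling. The interferon-stimulated genes with the smallest p were Mx2 (-1.84 ± 0.15), Rtp4 (-1.89 ± 0.17), Rsad2 (-1.55 ± 0.15) and Ifit1 (-1.84 ± 0.18). Of 8 hepatocyte markers 6 fell, among them Apoa1 (-0.81 ± 0.10) and Alb (-0.85 ± 0.14), and their sums were 79400 to 108000 CPM with Myc and ruxolitinib and 124000 to 208000 CPM with mApple and vehicle. The 1 tested T cell marker, Cd4, fell (-1.21 ± 0.24). Of 5 monocyte or macrophage markers Trem2 rose (0.96 ± 0.29), of 5 sinusoidal endothelial markers 1 rose and 1 fell, and 0 of 8 Kupffer cell markers were called. Their part in the result was not tested.

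The same combination in old second-batch livers called 0 of 6 members by edgeR, against a background of 10.9% of 13761 genes (1496 genes). DESeq2 called 0 members beside 2171 genes over the whole table, and limma voom called 1, Trim25, beside 2832 genes. By edgeR 0 members had an unadjusted p under 0.05, as against 28% of all genes. The differences ran from -0.03 ± 0.49 for Usp18 to 0.44 ± 0.68 for Isg15, and without library 1136 they were 0.93 and 1.46. First-batch livers entered neither this comparison nor its interaction with age. Among them Usp18 measured 2.41 to 5.97 CPM with Myc and ruxolitinib and 8.77 to 13.5 CPM with mApple and vehicle, without overlap. Isg15 measured 3.57 to 9.44 CPM against 3.81 to 6.91 CPM there and did overlap. Whether age changed the effect of the combination was tested by their interaction. It called 0 of 6 members by edgeR, against a background of 0.287% of 13609 genes (39 genes). DESeq2 called 0 members beside 198 genes over the whole table. With limma voom 3 members were called (Usp18, Uba7 and Ube2l6), beside 597 genes. By edgeR the unadjusted p was under 0.05 for 4 members, Usp18, Uba7, Ube2l6 and Herc6, as for 14.1% of all genes. All 6 values were positive: 1.52 ± 0.53 for Usp18 (adjusted p = 0.187), 1.47 ± 0.72 for Isg15, 0.90 ± 0.39 for Herc6, 0.86 ± 0.31 for Uba7, 0.84 ± 0.27 for Ube2l6 (adjusted p = 0.151) and 0.08 ± 0.16 for Trim25. Without 1136 the interaction of Usp18 was 2.49 and passed (adjusted p = 0.0218), and that of Isg15 was 2.49 and did not (adjusted p = 0.14).

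Livers of one group differed from each other in a way that most of these genes shared. Each library's deviation from the mean of its group and batch was compared between the 15 pairs of members over 58 libraries, by permutation within group and batch. Isg15 deviated together with Herc6 (Pearson r = 0.83, Spearman rho = 0.77), Uba7 (r = 0.83, rho = 0.82), Ube2l6 (r = 0.82, rho = 0.79) and Usp18 (r = 0.81, rho = 0.76); the permutation p was 1e-05 for each r and rho, the smallest that 100000 draws can give, and 1.88e-05 after adjustment over the 15. Leaving out the 2 libraries farthest from the median for Isg15, 1148 and 1136, gave r of 0.80, 0.81, 0.80 and 0.76. In the second batch r was 0.86 to 0.89, and in the first it was 0.48 with Herc6, 0.69 with Uba7, 0.40 with Ube2l6 and 0.59 with Usp18. The leukocyte marker Ptprc also varied between livers of one group, and its part in these relations was not tested.

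For Trim25 the values of r were lower. They were 0.44 with Isg15 (rho = 0.45, permutation p = 0.00068 and 0.00107, adjusted 0.000927 and 0.00146), 0.42 with Uba7, 0.39 with Usp18, 0.39 with Herc6 and 0.23 with Ube2l6 (rho = 0.27, permutation p = 0.108 and 0.063, the same after adjustment). Without 1148 and 1136 its r with Isg15 was 0.40, and within a batch it was 0.33 (first) and 0.48 (second). The protease and the E2 gene were the pair with the largest gap between batches, at 0.12 in the first and 0.79 in the second (0.67 over both, permutation p = 2e-05, adjusted 3.33e-05).

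**Figure D4:**
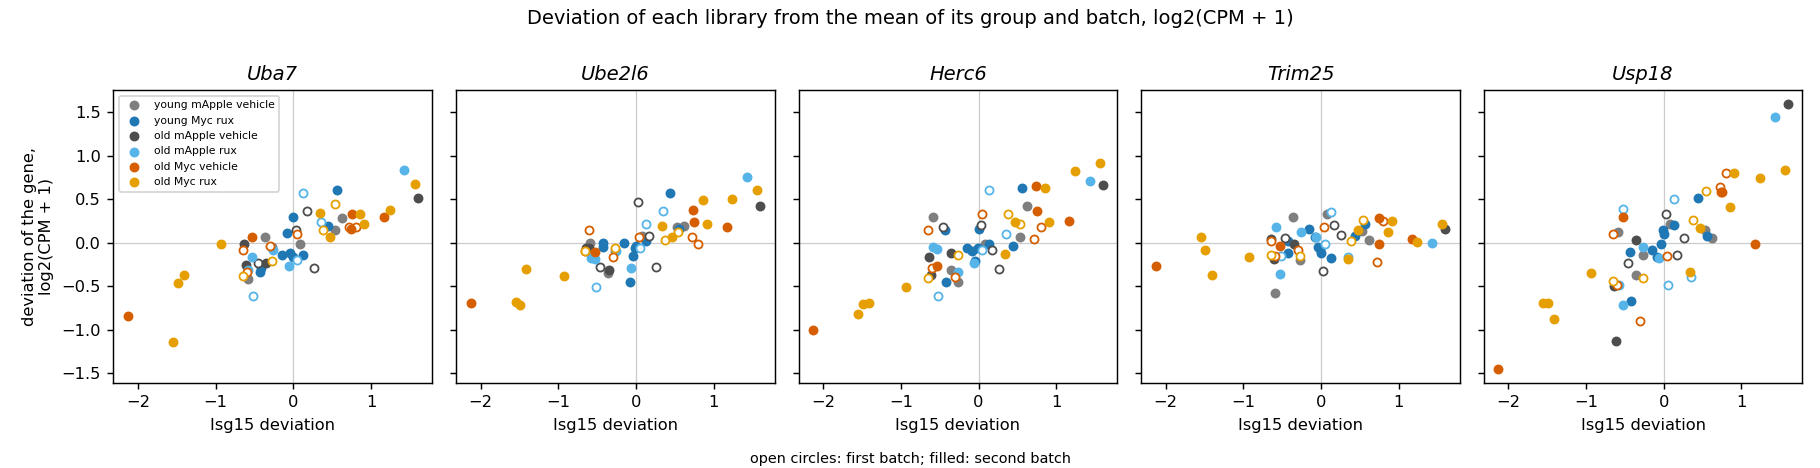
Deviation of each of 58 livers from the mean of its group and batch, in log2(CPM + 1), for Isg15 (horizontal axis) and each of the other 5 genes (vertical axes); open circles are first-batch livers. The points follow a common diagonal for Uba7, Ube2l6, Herc6 and Usp18 (r from 0.81 to 0.83) and lie flatter for Trim25 (r = 0.44).

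Among 11949 genes, those with deviations most like a member's were named as a description, with the r within group and batch first and the r over the 58 uncorrected libraries second. For Isg15 they were Oas1a (0.91 and 0.92), Dhx58 (0.88 and 0.94), Ifi44 (0.88 and 0.90) and Parp12 (0.88 and 0.93). Herc6 was closest to Ddx60 (0.93 and 0.95), Gbp3 (0.91 and 0.87), Ifih1 (0.88 and 0.94) and Ifi44 (0.87 and 0.83), Uba7 to Zbp1 (0.89 and 0.89), Gbp3 (0.87 and 0.92), Irf7 (0.86 and 0.90) and Oas1a (0.86 and 0.89), and Ube2l6 to Zbp1 (0.83 and 0.86), Gbp3 (0.82 and 0.86), Isg15 (0.82 and 0.79) and Dhx58 (0.81 and 0.78). For Usp18 they were Slfn8 (0.84 and 0.89), Isg15 (0.81 and 0.88), Ifit3 (0.81 and 0.90) and Ddx60 (0.81 and 0.89). Trim25 had other neighbours and lower values: Nhlrc3 (0.68 and 0.56), Cmtr1 (0.65 and 0.77), Kdm5c (0.63 and 0.58) and Kif13b (0.63 and 0.50). Trim25 ranked 619th among the genes most like Isg15, whereas Herc6, Uba7, Ube2l6 and Usp18 ranked 11th, 12th, 15th and 21st.

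The protease and its modifier can be set against each other within a liver, which cancels library scaling. The log2 ratio of Usp18 to Isg15 was computed with 0.1 CPM added to each and compared in 8 comparisons by exact two-sided permutation within batch, a test chosen after the levels had been seen. In old mApple livers the ratio was 0.57 ± 0.52 (SD, n = 8) with vehicle and -0.47 ± 0.72 (n = 9) with ruxolitinib. Within batches this made a difference of -1.0 (exact permutation p = 0.00238, adjusted over the 8 p = 0.019), and it was -1.0 in each batch. It passed without any 1 library, with adjusted p up to 0.041 and values from -1.16 to -0.87.

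In old Myc livers the ratio was 0.44 ± 0.73 (n = 11) with vehicle and -0.13 ± 0.73 (n = 14) with ruxolitinib, a difference of -0.59 that did not pass (exact permutation p = 0.0724, adjusted p = 0.145). The batches disagreed: -1.52 in the first, where the 4 ruxolitinib livers (-0.97 to -0.55) lay below the 6 vehicle livers (0.13 to 1.56), and 0.08 in the second. Without the vehicle library 1146 the difference was -0.82 and passed (adjusted p = 0.0292). In the young, Myc with ruxolitinib stood at -0.39 ± 0.31 (n = 10) and mApple with vehicle at 0.20 ± 0.53 (n = 6), a difference of -0.59 (exact permutation p = 0.0102, adjusted p = 0.041). That call was lost when any 1 of 12 of the 16 libraries was left out (adjusted p up to 0.138 without 1134) and with 1 CPM added instead (-0.44, adjusted p = 0.0544). The other 5 comparisons gave differences from -0.16 to 0.51, none past the threshold.

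**Figure D5:**
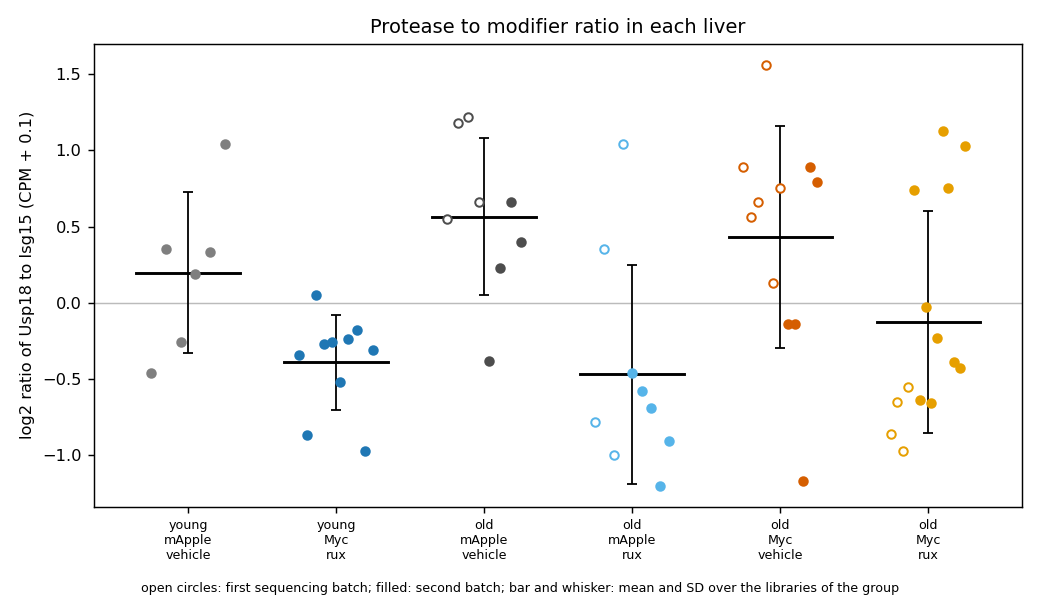
Log2 ratio of Usp18 to Isg15 (0.1 CPM added to each) in each of 58 livers, by group; open circles are first-batch libraries and bars show the mean and SD. Old mApple livers lie at 0.57 on average with vehicle and at -0.47 with ruxolitinib.

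Transcripts of the ligands that start this route were near the limit of counting. Of 18 type I and type III interferon genes in the table, 14 had no count in any of the 58 libraries, and the largest total over all libraries was 33 counts, for Ifnk. Ifnb1 reached at most 0.109 CPM and Ifng, the type II ligand, at most 0.434 CPM. A count of 0 does not exclude rare transcripts, so low levels of the ligands were not detectable at this depth.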

How the data were processed

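The authors deposited 1 table of estimated counts per gene for 58 libraries, made by read alignment with STAR and exon counting with HOMER on mm10 (GRCm38), per the submitters' processing notes and the file header; versions were not given in the sources used here. The deposited counts come in steps of 0.5 (29.9% are not whole) and were rounded. The labels give each library's group and batch, and libraries were compared between groups with the edgeR 4.0.16 quasi-likelihood test in R 4.3.3, with TMM factors, a minimum count of 10 in the design-based filter, batch as a covariate in fits across batches, and Benjamini-Hochberg adjustment at 0.05. Age comparisons and the Myc with ruxolitinib comparisons used the second batch. Standard errors were computed from the F statistic. The test was also run on counts simulated without a batch difference or libraries that stand apart, which cannot show how it handles these. DESeq2 1.42.0, limma 3.58.1 (voom with quality weights), other scalings and filters, single batches and leaving out libraries were alternatives. Levels are CPM, shown as log2(CPM + 1). Permutation tests and sequence searches used Python 3.11.15 (scipy 1.17.1, numpy 2.4.6, pandas 2.3.3) and plots matplotlib 3.10.9.

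The 6 members and all gene lists were chosen with earlier results of these data known. From each list, at most the 4 genes with the smallest p in a comparison were named, beside the paralogs Uba1 and Ube2l3 and the targeted Myc. The ratio tests, the 15 relations between members, the 3 motifs and the filter by group sizes were chosen after values had been seen; the design-based filter replaced the filter by group sizes at that stage. Some genes of the lists are not reported here by name.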

Additional observations from a re-analysis of the deposited data

Results flagged for a closer look

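Library 1136, an old mApple vehicle liver of the second batch, lay far above the other 7 livers of its group for Isg15 (4.81 on the log2(CPM + 1) scale, 27.1 CPM) and for Herc6 (4.88, 28.4 CPM). The gap to the next liver was past Dixon's 95% limit for 8 values in both cases. In all, 24 combinations of gene and group were checked, of which chance picks about 1 in 20. Old livers with Myc, on vehicle or on ruxolitinib, were not among the groups checked. The same liver had the highest Usp18 (31.7 CPM), Uba7 (22.8 CPM) and Trim25 (127 CPM) of its group, and the difference between old and young mApple vehicle livers rested on it for Isg15 and Usp18.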

How the results depend on the processing

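Library numbers are unique to a library. No paired analysis was possible because no groups share replicate numbers. Of 539 values of single members under settings other than leaving out 1 library, 482 kept direction and side of the threshold, 24 lost a call, 14 gained one and 19 changed sign; with 1 library left out these were 1225, 38, 11 and 22 of 1296. The cause of each change was not tested.

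For ruxolitinib in old mApple livers (1 member called) the count was 2 with DESeq2, voom or a single fit, and 0 with library totals, without the 6 libraries that stood apart, without a batch term, or in either batch; leaving out 1 library gave 0 to 2. For ruxolitinib in old Myc livers (2) it was 1 with voom, library totals or no batch term, and 0 in the second batch. For Myc under vehicle (5) it was 2 without a batch term or among first-batch livers, 1 among second-batch livers, and 2 to 6 with 1 library left out. For Myc under ruxolitinib (2) it was 1 with no filter, 4 in a single fit and 0 in the first batch, and 1 to 3 with 1 library left out. Over the whole table the fit with no filter called 1801 genes, the single fit 2904 and the first batch 0, against 2012 as reported. Voom called 1 member for Myc with ruxolitinib in old livers and 3 for the interaction with age, where leaving out 1 library gave 0 to 1.

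Signs that changed belong to differences that had not been called, except Usp18 for Myc under ruxolitinib. For ruxolitinib in mApple livers Ube2l6 was at -0.03 (voom) and -0.12 (second batch), and Uba7 at 0.0 (first batch). For Myc under ruxolitinib the first batch gave -0.06 for Usp18, -0.03 for Uba7 and -0.33 for Ube2l6. The interaction of Myc and drug was 0.20 (voom) and 0.10 (second batch) for Isg15, 0.05 (voom) and 0.01 (no batch term) for Herc6, and, in the first batch, -1.40 for Usp18 and -0.03 for Trim25. Trim25 was at -0.02 for age in mApple livers and -0.01 for Myc with ruxolitinib in the young (voom), and a single fit gave -0.06 for that combination in the old and -0.16 for its interaction with age. Usp18 was at 1.0 (voom), 0.0 (no filter) and 0.07 (library totals) for the combination in the old. Leaving out 1 library changed signs within these ranges: Ube2l6 from -0.05 to 0.15 for ruxolitinib in mApple livers and -0.02 to 0.16 for Myc under ruxolitinib; Usp18 from -0.06 to 0.47 and Herc6 from -0.18 to 0.04 for the interaction of Myc and drug; for age in mApple livers Isg15 from -0.09 to 1.15, Ube2l6 from -0.01 to 0.26, Herc6 from -0.18 to 0.24 and the Usp18 to Isg15 ratio from -0.12 to 0.23; for the combination in the old Usp18 from -0.34 to 0.93 and that ratio from -0.31 to 0.04.

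The number of genes called over the whole table for ruxolitinib in old mApple livers was 53 as reported, 142 with DESeq2, 10 with library totals, 26 without a batch term, and 6 and 11 in the first and second batch. With voom or in a single fit it was 64, and without the 6 libraries that stood apart 46. For ruxolitinib in old Myc livers it was 75, against 168 with DESeq2, 43 with library totals, 320 in a single fit, 44 without a batch term, and 907 and 9 by batch. With voom it was 94. For Myc under vehicle it was 2544, against 1468 without a batch term and 732 and 629 by batch, and for Myc under ruxolitinib 2012, against 1033 and, in the first batch, 0. For age in mApple livers it was 145, against 649 with DESeq2 and 1640 with voom. For Myc with ruxolitinib in old livers it was 1496, against 2832 with voom and 3349 in a single fit, and for its interaction with age 39, against 198 with DESeq2, 597 with voom and 15 with library totals. The filter by group sizes, added after values had been seen, changed no member call.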
